A study of Mus musculus with 24 samples.

Results

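The response of blood genes to total body irradiation was examined in old male C57BL/6J mice, with 6 mice that received 4 Gy of x-rays and 6 that did not. These 12 mice were taken by their labelled age (21 months), dose and replicate number from a series of 24 mice, whose other 12 were 2 months old and were used here in the filters that chose the genes tested and in a test of whether the response differed with age. Irradiated mice were exposed over the whole body at 1 Gy per min, unirradiated mice were sham-irradiated, and blood was drawn from the heart of every mouse 24 h later. No transgene or engineered deletion is reported for any mouse. The RNA of all mice was depleted of globin transcripts before labelling with a single dye (Cy3) for 1 array per mouse. A level below is the log2 signal of a gene's probe minus the median of that array, so that a difference of 1 is a 2-fold difference and 0 is the middle of the array. Levels of different genes come from different probes and are not set against each other.

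Blood RNA is a mixture of the transcripts of lymphocytes, neutrophils, monocytes, platelets and immature red cells. Ionizing radiation breaks DNA, the kinase ATM activates the transcription factor p53, and p53 induces genes of cell cycle arrest, repair and cell death. Resting B cells are among the most radiosensitive cells of the blood, whereas platelets have no nucleus and neither divide nor transcribe genes. In whole blood, fewer cells of a type and less RNA per cell cannot be told apart, and a level relative to the array median can also move because other transcripts take up more or less of the RNA.

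The irradiated old mice differed more among themselves than the unirradiated ones, with a median SD per gene of 0.864 against 0.355. Irradiated mice 2, 3 and 5 carried hepatocyte transcripts at high levels, while irradiated mice 4 and 6 carried high levels of red cell transcripts and low levels of most leukocyte transcripts. Irradiated mice 4 and 6 also had the lowest median signals (8.66 and 8.84, against 14.5 to 33.1 in the other 10 mice) and the lowest shares of spots well above background (48.9% and 44.3%, against 50.3% to 62.3%). Irradiated mouse 1 belonged to neither set. Unirradiated mice 1 and 6 were the closest pair of the 12, with a spread of their log2 differences over genes (MAD) of 0.201 against 0.392 for the next pair of their group, and irradiated mice 4 and 6 were the closest irradiated pair (0.361 against 0.465). Over the brightest 133 probes with repeat spots, the unirradiated pair differed by 0.1 where repeat spots within an array allowed 0.0288, which does not tell 2 mice from repeat arrays of 1 RNA. All 12 are labelled as separate mice and were counted so, and counts with each pair as 1 sample are given below. Arrays lay on 3 slides scanned on 1 day, and the slide with both groups held unirradiated mice 5 and 6 and irradiated mice 1 and 2. Results are given for all 12 mice, with counts for many of the gene lists also without irradiated mice 2, 3 and 5 or without irradiated mice 4 and 6.

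Of 17802 genes tested, 4428 (24.9%) were differentially expressed (DEGs: limma p below 0.005 and adjusted p below 0.05), of which 1334 (7.49% of all genes) were upregulated and 3094 (17.4%) were downregulated. Over all genes the log2 change had a median of -0.25. That value and the shares of 7.49% up and 17.4% down are the background for every list below. Scaling the arrays by their 75th percentile moved this median to 0.24 and the share of upregulated genes among the DEGs from 30.1% to 48%. The groups did not overlap in 4010 genes (22.5%), with irradiated mice higher in 1037 (5.83%) and lower in 2973 (16.7%). Without irradiated mice 2, 3 and 5 there were 7168 DEGs (2819 or 15.8% up and 4349 or 24.4% down), and without irradiated mice 4 and 6 there were 6129 (2083 or 11.7% up and 4046 or 22.7% down). A set of 3447 genes (77.85% of the DEGs) were DEGs in the same direction in all 3 comparisons, 886 up and 2561 down. With normexp background correction, 8 genes were DEGs, and 99.1% of the 3135 DEGs that could be tested this way had the same direction. Those 3135 were chosen as DEGs on the same arrays, so their shared direction says little about the calls. With unirradiated mice 1 and 6 counted as 1 sample and irradiated mice 4 and 6 counted as 1 sample, there were 2876 DEGs (1112 up).

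**Figure D1:**
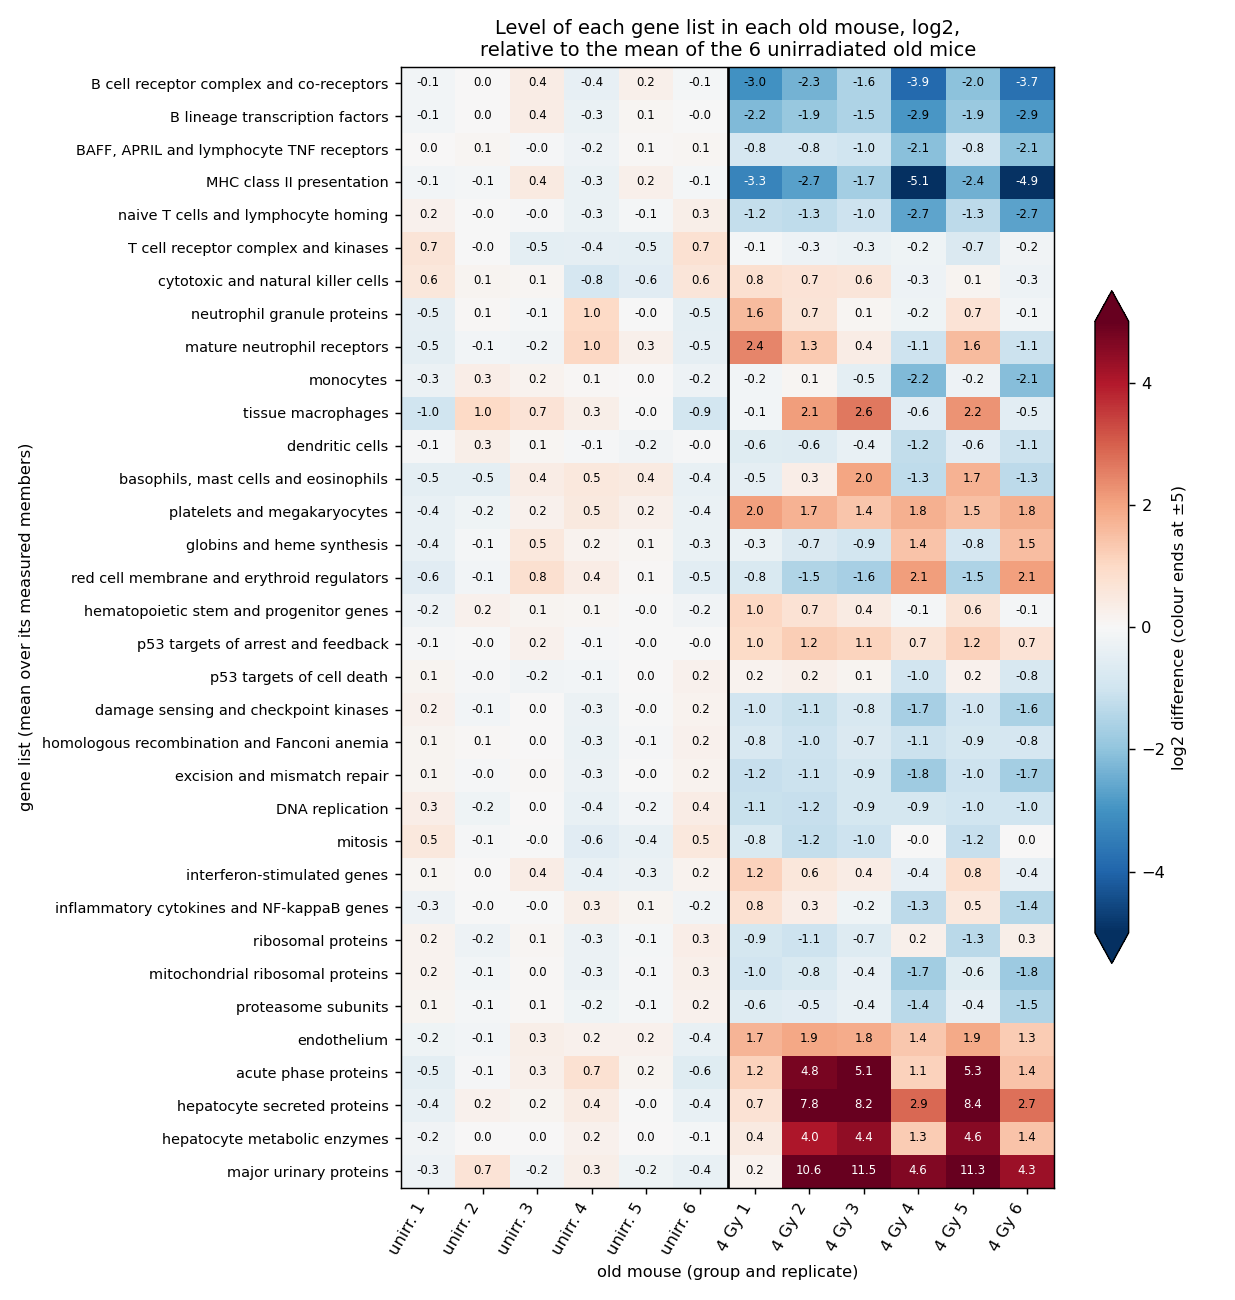
Level of 34 gene lists (rows, mean over measured members) in each of the 12 old mice (columns), as the log2 difference from the mean of the 6 unirradiated mice. B cell, MHC class II and repair lists were lower and platelet and endothelial lists higher in all 6 irradiated mice, whereas red cell lists were high in irradiated mice 4 and 6 and hepatocyte lists in irradiated mice 2, 3 and 5.

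B cell genes fell the furthest of the blood cell lists apart from those of antigen presentation. Of 24 measured genes of the B cell receptor complex and its co-receptors, 19 were downregulated and 1 was upregulated (background 17.4% and 7.49%), with a median log2 change of -3.10. The mean level of the list was between 6.44 and 7.21 in the unirradiated mice and between 2.96 and 5.27 in the irradiated mice, so the groups did not overlap. The largest fall was that of *Fcer2a* (CD23, the low-affinity IgE receptor of mature B cells), whose level was 5.40 to 6.40 (median 5.95) in unirradiated mice and -0.03 to 0.77 (median 0.44) in irradiated mice. All 6 irradiated mice lay at the same low level, including those with liver and those with red cell transcripts. *Fcer2a* fell by 5.51 ± 0.25 on the log2 scale (SE, n = 6 per group; 45.6-fold; adjusted p = 1.11e-07), and was well above background in 4 of 6 irradiated mice. *Vpreb3*, a chaperone of the B cell receptor's light chains, was likewise uniform, at 6.76 to 8.10 (median 7.48) without and 1.95 to 2.59 (median 2.15) with irradiation, a fall of 5.19 ± 0.27 (adjusted p = 2.10e-07).

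Other B cell genes fell in every irradiated mouse but by amounts that differed between mice. *Cd79a*, a signalling chain of the B cell receptor, was at 8.54 to 9.26 (median 8.76) in unirradiated mice and 2.69 to 7.25 (median 4.64) in irradiated mice, with mice 4 and 6 lowest and mouse 3 highest. Its fall was 4.13 ± 0.67 (adjusted p = 0.00104), 5.67 without irradiated mice 2, 3 and 5 and 3.23 without irradiated mice 4 and 6. *Cd79b*, the partner chain, fell by 4.13 ± 0.69, and *Fcmr*, the IgM Fc receptor, fell by 4.38 ± 0.58. *Ms4a1* (CD20), *Blk* and *Blnk*, which modulate or relay the receptor's signal, fell by 3.88, 3.80 and 4.00. *Cd37*, a tetraspanin of B and T cells, fell by 1.08 ± 0.21. The single upregulated member was the tetraspanin *Cd81*, which many other cells also express, at 8.73 to 9.6 in unirradiated and 9.98 to 10.6 in irradiated mice (1.12 ± 0.23). Its call was lost with quantile normalization (1.03, adjusted p = 0.0206).

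Transcription factors of the B lineage fell with the receptor genes, in 13 of 18 measured members with none upregulated and a median of -2.26. *Ebf1*, which commits progenitors to the B lineage, fell by 4.75 ± 0.72 (adjusted p = 7.46e-04), from 4.5 to 5.40 in unirradiated mice to between -2.09 and 3.04 in irradiated mice, and was well above background in 3 of 6 irradiated mice. *Bcl11a*, a zinc finger factor needed for B cell development, varied less, at 6.02 to 6.87 against 1.77 to 3.46, and fell by 4.00 ± 0.32 (adjusted p = 2.25e-05). *Spib* and *Pou2af1*, which drive the response to antigen, fell by 3.83 ± 0.67 and 3.58 ± 0.66. *Irf8*, shared with monocytes and dendritic cells, fell by 2.95 ± 0.42, and *Foxp1* by 2.27 ± 0.44.

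Receptors for the survival factors BAFF and APRIL and their signalling partners had 9 of 19 measured members down and none up, with a median of -1.28. *Tnfrsf13c*, the BAFF receptor on which mature B cells depend, was at 5.99 to 6.93 (median 6.36) in unirradiated and 0.02 to 4.28 (median 1.98) in irradiated mice, with mouse 3 highest and mouse 4 lowest. It fell by 4.42 ± 0.63 (adjusted p = 5.42e-04) and was well above background in 4 of 6 irradiated mice. *Cd40*, the receptor for T cell help, fell by 3.98 ± 0.74, *Tnfrsf13b* (TACI) by 3.05 ± 0.57 and *Nfkb2*, the subunit of the non-canonical NF-kappaB pathway, by 2.12 ± 0.41. Leaving out irradiated mouse 6 gave 1 upward call in this list. Plasma cell genes had a median change of 0.18 over 12 measured members, with none a DEG by limma, 4 at an unadjusted p below 0.05, and 1 called when unirradiated mouse 3 or irradiated mouse 3, 4 or 6 was left out. They had 3 down without irradiated mice 2, 3 and 5, 3 up without irradiated mice 4 and 6 and 3 up with the 75th percentile.

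Genes of MHC class II, which present peptides to CD4+ T cells on B cells, monocytes and dendritic cells, had the lowest median of all lists (-3.35), with 12 of 13 measured members down. *H2-Ab1*, the beta chain of I-A, was at 11.4 to 12.3 (median 11.6) in unirradiated mice and 6.20 to 10.4 (median 8.93) in irradiated mice. Mice 4 and 6 were at 6.20 and 6.40 and the other 4 irradiated mice between 8.53 and 10.4, all below every unirradiated mouse. The fall was 3.35 ± 0.65 (adjusted p = 0.00252), 4.71 without irradiated mice 2, 3 and 5 and 2.30 without irradiated mice 4 and 6. *H2-Eb1* fell by 3.28 ± 0.62 and *Cd74*, the invariant chain that escorts class II molecules, by 3.87 ± 0.76. *H2-Ob*, a chain of the class II modulator of B cells, fell by 4.33 ± 0.50, and *Ciita*, the class II transactivator, by 2.52.

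The promoters of class II genes carry a Y box with the core ATTGG, bound by NF-Y, and 8 of the 10 members with a promoter in the RefSeq table (GRCm38.p6, 250 bases before to 50 after the start) held ATTGG on either strand, against 41.1% of the 27025 genes of the table. All 8 were downregulated, as was 1 of the 2 without ATTGG, where 17.4% of all genes were down. The stretch around one match is shown for 2 members on chromosome 17, 5′ to 3′ on the plus strand, with ATTGG or its complement in capitals.
H2-Eb1 promoter, chr17:34305812-34305856: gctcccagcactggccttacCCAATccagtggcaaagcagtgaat
H2-Ob promoter, chr17:34238828-34238872: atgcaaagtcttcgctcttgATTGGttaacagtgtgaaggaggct
A match is a description of these windows and does not show that a factor bound there.

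Receptors that place lymphocytes in lymph nodes and follicles fell as well, in 10 of 20 measured members of the list of naive T cell and homing genes, with none up and a median of -1.43. *Ccr6*, a chemokine receptor of B cells and of some T cells, was at 6.41 to 7.28 (median 6.79) in unirradiated and 0.84 to 2.94 (median 2.18) in irradiated mice and fell by 4.85 ± 0.37 (adjusted p = 1.52e-05). *Ccr7*, which guides T and B cells into lymph nodes, fell by 3.69 ± 0.52. *Cxcr5*, the receptor for follicles, fell by 3.54 ± 0.54, with irradiated mouse 3 at 6.05 and mice 1, 4 and 6 between 2.74 and 2.88. *S1pr1*, the exit receptor of lymphocytes, fell by 2.74 ± 0.61 and *Btla*, an inhibitory receptor, by 3.99 ± 0.45. *Pla2g2d*, a secreted phospholipase of antigen-presenting cells, fell by 5.32 ± 0.28, and was well above background in 2 of 6 irradiated mice.

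**Figure D2:**
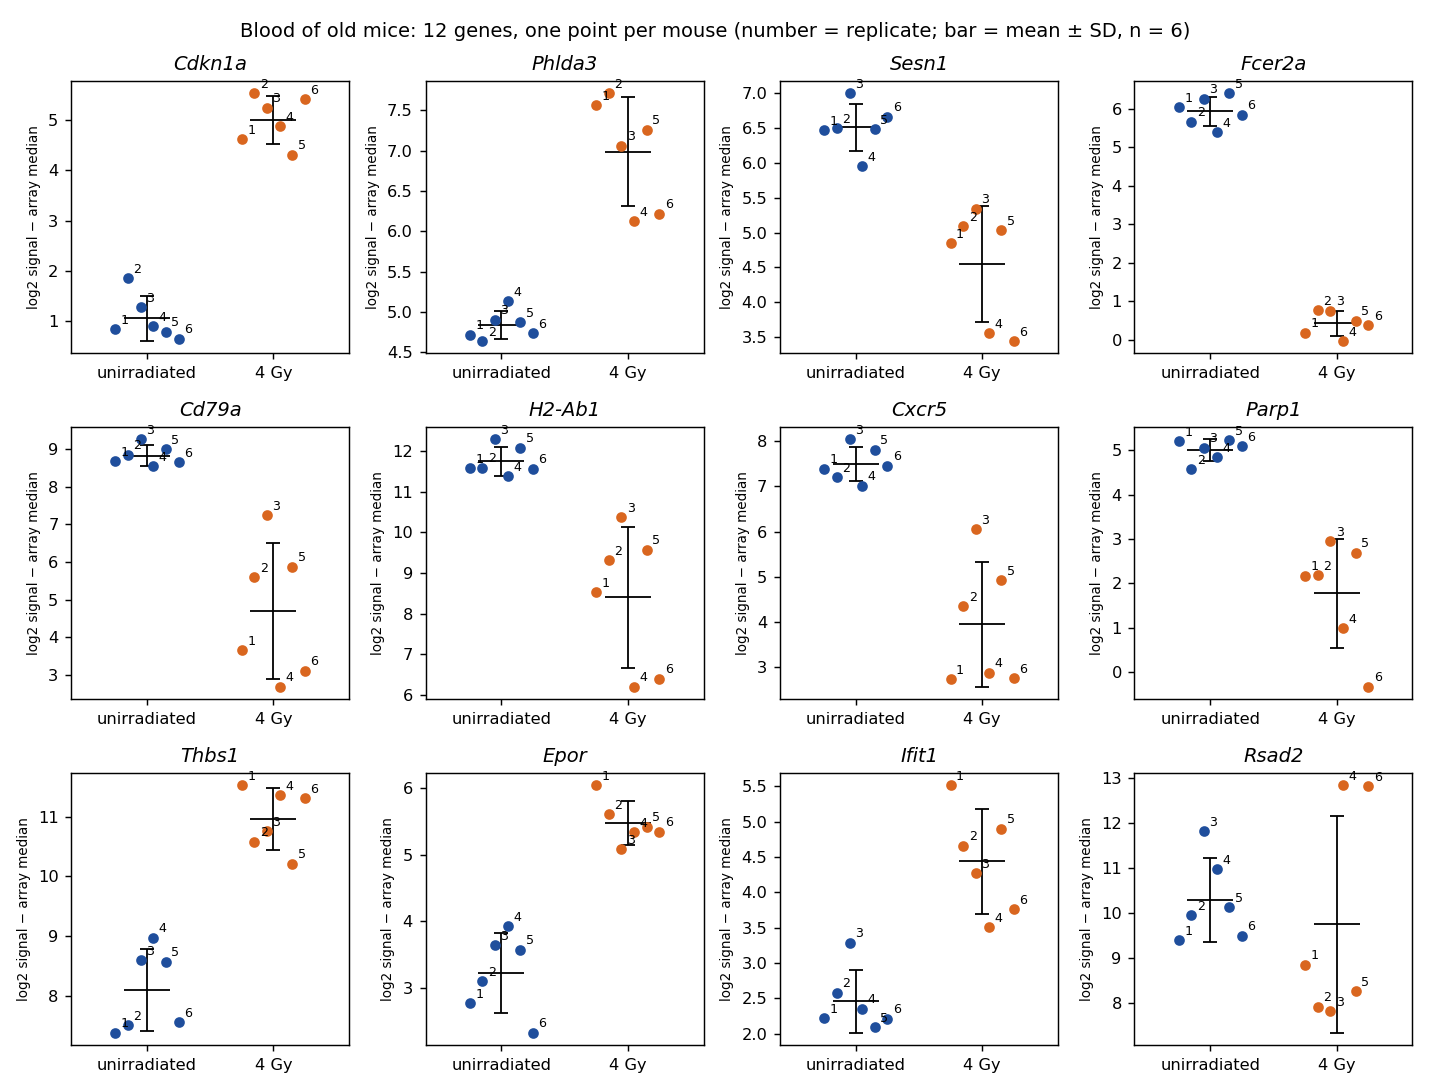
Levels of 12 genes (log2 signal minus the array median, separate axis for each gene) in each old mouse, numbered by replicate, with the mean and SD of 6 mice as bars. The groups do not overlap in any gene shown except *Rsad2*, whose irradiated values split into mice 4 and 6 (12.85 and 12.82) and the other 4 mice (7.83 to 8.86). These 12 genes were picked with their values known and do not stand for all genes, of which 22.5% did not overlap.

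Genes of the T cell receptor complex and of cytotoxic and natural killer cells had few calls. Of 29 measured members of the T cell receptor complex and its kinases, 2 were down and 1 up, and the median change was -0.41. The count of 2 was 1 without any single one of unirradiated mice 1, 2, 3, 5 and 6 and irradiated mice 2, 4, 5 and 6, and leaving out irradiated mouse 4 or 6 gave 2 upward calls. With the 75th percentile 3 were up and 1 down. *Cd2*, an adhesion receptor of lymphocytes, fell by 1.56 ± 0.29, from 7.91 to 9.07 in unirradiated to 6.64 to 7.89 in irradiated mice. *Thy1*, a surface marker of mouse T cells, was at 8.10 to 10.4 (median 8.33) and 7.47 to 8.53 (median 8.11), and *Lck*, the first kinase of the T cell receptor, at 7.69 to 9.68 (median 8.06) and 7.5 to 8.02 (median 7.70). For both the groups overlapped and neither was a DEG (adjusted p = 0.151 and 0.153). Unirradiated mice 1 and 6 were the high ones: the mean level of the list was 5.66 and 5.74 in them and 4.52 to 4.99 in the other 4 unirradiated mice. The upregulated member was *Prkcq*, protein kinase C theta (1.23 ± 0.29), for which the mean of all its probes changed by 0.19 and the authors' deposited values by -0.02.

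Of 29 measured cytotoxic and natural killer genes, 1 was up (*Xcl1*, a chemokine of these cells, 1.28) and 1 was down (*Gzmm*, granzyme M, -3.19). *Gzmm* was at 9.18 and 9.30 in unirradiated mice 1 and 6 and at 4.79 to 5.14 in the other 4, against 1.40 to 4.25 in irradiated mice. Its call was lost when any of unirradiated mice 1 and 6 or irradiated mice 1, 3, 4 and 6 was left out, with changes of -3.51 to -2.60 over all single omissions. *Ccl5* and *Nkg7*, abundant in cytotoxic cells, changed by -0.01 and 0.24 and were not DEGs. Their groups overlapped. *Xcl1* lost its call without unirradiated mouse 2, 3, 4 or 5 or irradiated mouse 1, 2 or 3, and without irradiated mice 2, 3 and 5 (1.18, adjusted p = 0.0351), and leaving out irradiated mouse 6 gave 2 upward calls. Without irradiated mice 4 and 6, 6 of the 29 were up and none down.

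**Figure D3:**
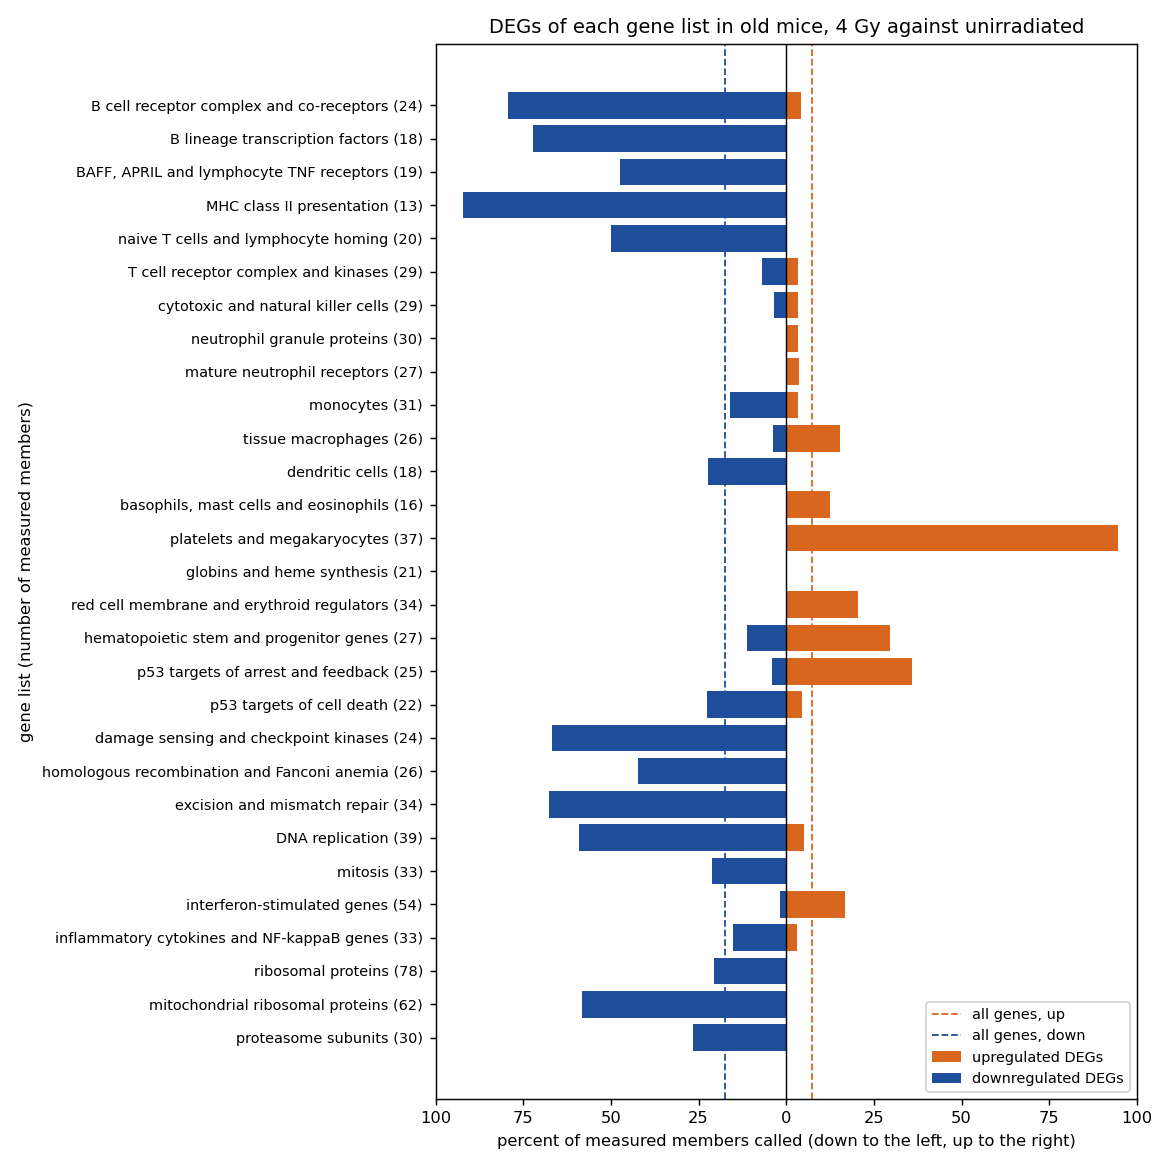
Percent of measured members of 29 gene lists that were upregulated (right, orange) or downregulated (left, blue) DEGs in irradiated against unirradiated old mice, with dashed lines at the shares over all genes (7.49% up and 17.4% down). The platelet list reaches 94.6% up, the MHC class II list 92.3% down and the naive T cell and homing list 50% down. The T cell receptor, neutrophil, monocyte and globin lists lie at or below the shares of all genes in both directions.

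Targets of p53 in cell cycle arrest and feedback were upregulated more often than all genes. Of 25 measured members, 9 were up and 1 was down (36% and 4%, against 7.49% and 17.4% of all genes). Their median was 0.88. The upregulated count was 16 without irradiated mice 4 and 6, and 14 with scaling by the 75th percentile (median 1.30) or by the median of those probes that every array measured well above background, the detected-probe median (median 1.34). Without irradiated mice 2, 3 and 5, 3 were down. *Cdkn1a* (p21), the cyclin-dependent kinase inhibitor that halts the cycle, was at 0.64 to 1.85 (median 0.86) in unirradiated and 4.32 to 5.54 (median 5.07) in irradiated mice. The irradiated values spanned little more than 1 log2 unit and did not follow the liver or red cell transcripts. *Cdkn1a* rose by 3.96 ± 0.29 (15.6-fold; adjusted p = 1.52e-05), 3.93 without irradiated mice 2, 3 and 5 and 3.88 without irradiated mice 4 and 6. *Phlda3*, an inhibitor of the kinase Akt, was at 4.64 to 5.13 (median 4.81) and 6.12 to 7.71 (median 7.16) and rose by 2.15 ± 0.31 (adjusted p = 5.42e-04).

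*Mdm2*, the ubiquitin ligase that degrades p53, was at 6.41 to 6.69 in unirradiated and 7.01 to 8.97 in irradiated mice, highest in mice 4 and 6, and rose by 1.33 ± 0.35 (adjusted p = 0.0108). *Psrc1* and *Gtse1*, which act on microtubules and on p53, were also highest in mice 4 and 6. *Psrc1* was at 2.17 to 2.71 in irradiated mice 1, 2, 3 and 5 and at 4.46 and 4.45 in mice 4 and 6, above 0.68, the highest unirradiated value (2.90 ± 0.41). *Gtse1* was not well above background in any unirradiated mouse and was at least 2.49-fold higher in irradiated mice (adjusted p = 0.00256). *Ccng1* (cyclin G1) and *Ei24* rose by 1.94 and 1.12. *Sesn1*, a stress-response inhibitor of mTORC1 and a p53 target of the same list, fell by 1.96 ± 0.36, from 5.95 to 6.99 to between 3.45 and 5.34, with mice 4 and 6 lowest. With unirradiated mice 1 and 6 and irradiated mice 4 and 6 each counted as 1 sample, the call of *Mdm2* was lost (1.13, adjusted p = 0.0387).

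A second list of 22 measured p53 targets held genes of cell death together with genes of repair and survival. In it 1 was up and 5 were down, against 7.49% and 17.4% of all genes, with a median of -0.05 that turned to 0.36 with scaling by the 75th percentile. *Aen*, an apoptosis-enhancing nuclease, rose by 0.91 ± 0.23, from 4.82 to 5.54 to between 5.86 and 6.67, a call lost with the closest pairs counted as 1 sample each (0.86, adjusted p = 0.0348). *Bax*, the effector of the mitochondrial pathway, was at 5.72 to 6.41 and 6.38 to 7.11, with a change of 0.62 ± 0.23 and an adjusted p of 0.0515. *Bax* was a DEG without irradiated mice 4 and 6 (0.75, adjusted p = 0.00852), with scaling by the 75th percentile (0.92, adjusted p = 0.00572) or by the detected-probe median (0.96, adjusted p = 0.00466), and in 1 fit of all 24 arrays (adjusted p = 0.00656). *Bbc3* (PUMA), an activator of BAX, was at 6.60 to 7.44 in irradiated mice 1, 2, 3 and 5 and at 4.93 and 4.94 in mice 4 and 6, against 5.10 to 6.07 in unirradiated mice, and was a DEG only without mice 4 and 6 (1.51, adjusted p = 7.14e-04). The 5 that fell were *Trp53i11* (-2.12 ± 0.32), *Ddb2*, the damage sensor of nucleotide excision repair (-1.45 ± 0.27), *Tigar*, a phosphatase that lowers glycolysis and protects cells (-1.46), *Siva1*, an inducer of apoptosis (-1.17), and *Dcp1b*, of mRNA decapping (-0.84). Without irradiated mice 4 and 6, 5 of the list were up and 4 down, and the downregulated count was 3 with the 75th percentile and 2 with the authors' values. The count of 5 fell to 2 without unirradiated mouse 1 or 6 and to 3 without unirradiated mouse 2, 3 or 5 or irradiated mouse 6.

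Among death receptors, adaptors and caspases, 5 of 20 measured members were down (25%, against 17.4% of all genes). They included *Ripk3*, the kinase of necroptosis (-1.66 ± 0.34), and *Casp2*, a caspase of the damage response (-1.19 ± 0.23). The count was 3 without any single one of unirradiated mice 1, 2, 3, 5 and 6 and irradiated mice 4 and 6, and leaving out unirradiated mouse 2 or irradiated mouse 6 gave 1 upward call. It was 9 without irradiated mice 2, 3 and 5, 3 with the 75th percentile and 2 with the authors' values, and 2 members were up without irradiated mice 4 and 6. The list's median of -0.78 turned to 0.53 with scaling by the 75th percentile. Of 16 BCL2 family members 1 was up and 1 down, 1 and 3 without irradiated mice 2, 3 and 5 and 3 and 4 without irradiated mice 4 and 6. In this list *Cflar* (c-FLIP), which blocks caspase 8, was upregulated, at 5.01 to 5.61 in unirradiated and 6.17 to 7.52 in irradiated mice (1.44 ± 0.28), although the mean of all its probes was not a DEG (0.60, adjusted p = 0.143).

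None of the windows around the start of the 21 arrest targets or the 16 death targets that had a RefSeq promoter held an ungapped pair of p53 half-sites, which 3 of 27025 genes (0.0111%) held. This says only that the letters are not in these windows.

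Genes that sense and repair DNA damage were mostly lower after irradiation. Of 24 measured damage sensors and checkpoint kinases, 16 were down and none up (66.7% down, against 17.4% of all genes), with a median of -1.38. With the authors' values 10 were down, where 1367 of all 17165 genes were down. The mean level of the list was 2.95 to 3.46 in unirradiated and 1.58 to 2.41 in irradiated mice. *Trp53* itself, encoding p53, was at 2.51 to 3.27 (median 2.73) and -0.16 to 1.59 (median 1.28) and fell by 1.82 ± 0.32 (adjusted p = 0.00154). *Atm*, the kinase that responds to double-strand breaks, fell by 1.75 ± 0.32, and was well above background in 4 of 6 irradiated mice. *Timeless*, a component of the replication fork, was at 2.65 to 3.32 and 0.02 to 1.19 and fell by 2.18 ± 0.26 (adjusted p = 2.68e-04).

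In excision and mismatch repair, 23 of 34 measured members were down (67.6%, against 17.4% of all genes) and none up. The median was -1.26, and 14 were down with the authors' values. *Parp1*, which binds DNA breaks and modifies proteins there, was at 4.57 to 5.22 (median 5.07) and -0.33 to 2.95 (median 2.18). It fell by 3.23 ± 0.48 (adjusted p = 6.72e-04), 4.06 without irradiated mice 2, 3 and 5 and 2.50 without irradiated mice 4 and 6. *Mutyh*, a glycosylase for oxidized bases, fell by 2.10 ± 0.25, and the mismatch repair gene *Msh6* by 1.51. In homologous recombination and the Fanconi anemia pathway, 11 of 26 members were down (42.3%) and none up (median -1.03). The downregulated count was 8 with the detected-probe median and 4 with the authors' values, where 1745 of 15491 and 1367 of 17165 genes were down. The 11 included *Xrcc2*, of homologous recombination (-1.91 ± 0.26), and *Fancc* (-1.85 ± 0.30), which were well above background in 2 and 3 of 6 irradiated mice. Of 12 end joining genes 5 were down (41.7%), among them the 3 subunits of the DNA-dependent protein kinase, *Prkdc*, *Xrcc5* and *Xrcc6* (-1.58, -1.72 and -1.44). That count was 3 when unirradiated mouse 1, 2, 3, 5 or 6 or irradiated mouse 2, 4 or 6 was left out, and under each of the other scalings and in the authors' values except after normexp, which gave 0.

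Replication genes followed the same direction, with 23 of 39 measured members down and 2 up and a median of -1.22. These were 59% and 5.13%, against 17.4% and 7.49% of all genes. *Pold1*, the catalytic subunit of DNA polymerase delta, was at 5.20 to 6.06 (median 6.04) and 2.19 to 4.14 (median 3.35) and fell by 2.69 ± 0.35. *Cdt1*, which loads the replicative helicase, fell by 2.13 ± 0.27, and *Mcm5*, a subunit of that helicase, by 1.99 ± 0.29. *Pcna*, the sliding clamp, fell by 1.26 ± 0.29. The upregulated members were *Cdc45*, an activator of the helicase, at 0.15 to 1.05 and 1.55 to 2.53 (1.57 ± 0.26), and *Dut*, the dUTPase, at 4.75 to 5.34 and 5.76 to 6.85 (1.18 ± 0.24). Mitosis genes had 7 of 33 measured members down, close to the background, and irradiated mice 4 and 6 lay at the level of unirradiated mice on this list (2.31 and 2.36, against 1.76 to 2.85). Without mice 4 and 6, 16 of the 33 were down and 1 was up, and with the authors' values 2 were down. Of its members, *Ndc80*, which ties chromosomes to the spindle, fell by 2.10 ± 0.40 and was well above background in 2 of 6 irradiated mice.

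**Figure D4:**
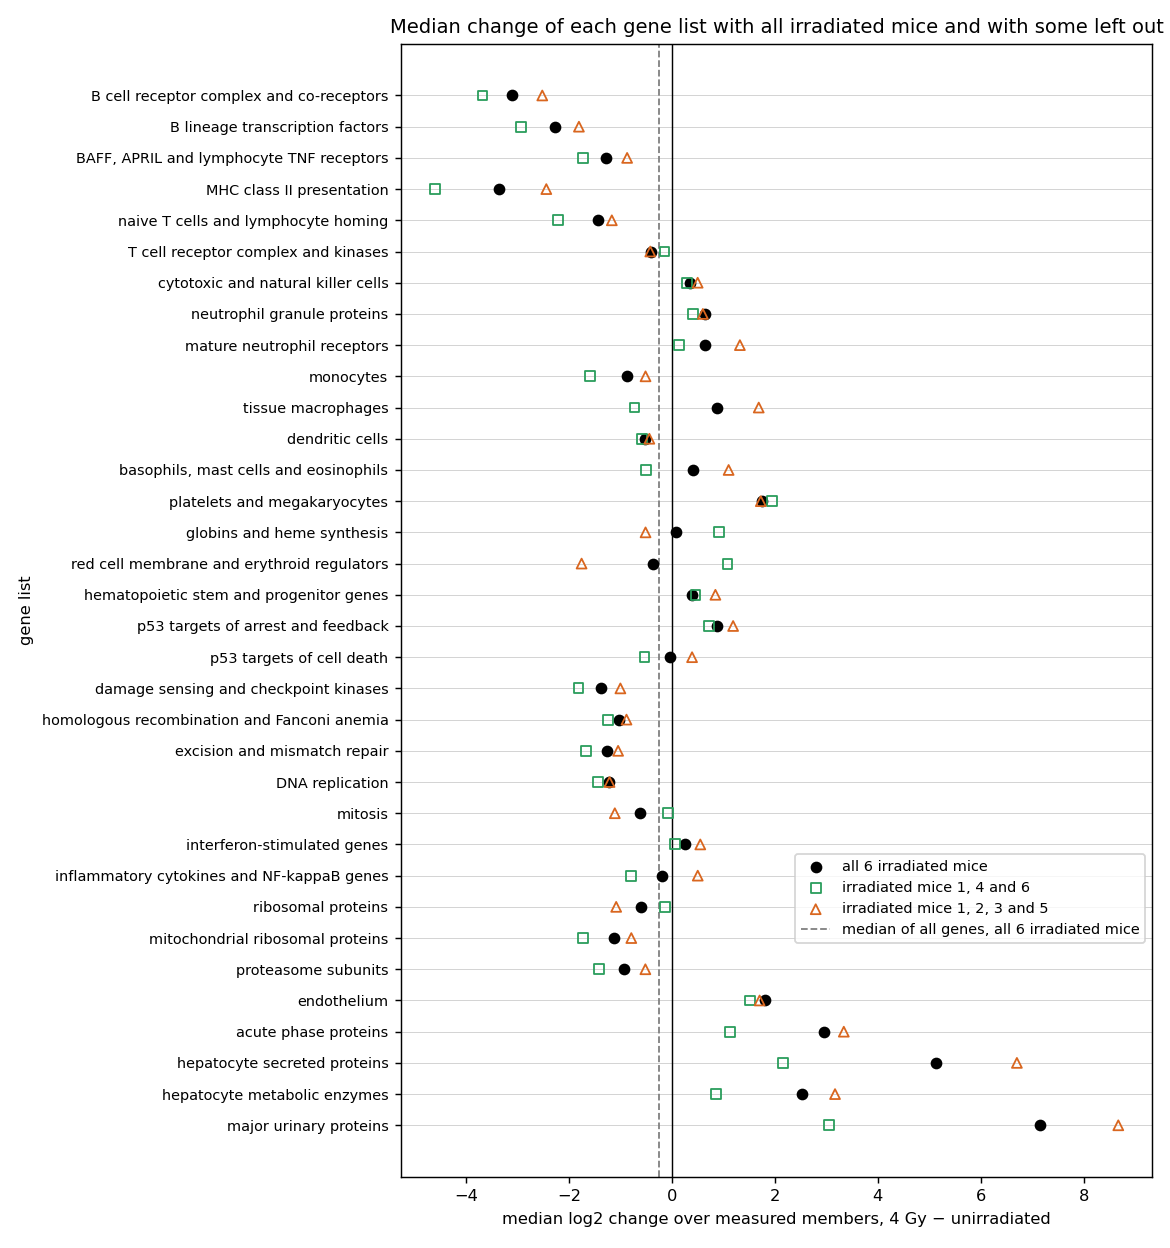
Median log2 change over measured members of 34 gene lists (4 Gy minus unirradiated) with all 6 irradiated mice (black), without irradiated mice 2, 3 and 5 (green squares) and without irradiated mice 4 and 6 (orange triangles), with the median of all genes dashed. B cell, MHC class II, repair, platelet and endothelial lists stay on 1 side of 0, whereas tissue macrophage, basophil and mast cell, globin, red cell, p53 cell death and inflammatory lists change sides with the mice left out.

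Platelet genes rose almost without exception. Of 37 measured members 35 were up and none down, with a median of 1.74, 1.94 without irradiated mice 2, 3 and 5 and 1.73 without irradiated mice 4 and 6. The mean level of the list was 6.88 to 7.76 in unirradiated and 8.65 to 9.30 in irradiated mice, with no overlap. *Thbs1* (thrombospondin 1, of the alpha granules) was at 7.39 to 8.98 (median 8.07) and 10.2 to 11.5 (median 11.04) and rose by 2.85 ± 0.36 (adjusted p = 3.08e-04). *Selp* (P-selectin), which binds leukocytes once platelets are active, was at 2.48 to 3.80 and 4.97 to 6.03 and rose by 2.42 ± 0.33. *Gp1bb*, of the receptor for von Willebrand factor, rose by 2.10 ± 0.31, *P2rx1*, an ATP-gated channel, by 2.07 ± 0.31 and *Vwf* by 1.67 ± 0.27.

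The chemokines *Pf4* and *Ppbp*, among the most abundant platelet transcripts, rose by 1.32 ± 0.34 and 1.54 ± 0.31. For *Pf4* the lowest irradiated value (12.5, mouse 5) was just above the highest unirradiated one (12.4), and its call was lost with the closest pairs counted as 1 sample each (1.08, adjusted p = 0.0451). Of 37 measured leukocyte integrins and their partners, 14 were up and 1 was down, 0 down without unirradiated mouse 1 or 6, 2 down without irradiated mouse 3 and 4 down without irradiated mice 2, 3 and 5. The 14 included the chains *Itga2b* and *Itgb3* of the platelet fibrinogen receptor (1.88 ± 0.32 and 2.06 ± 0.28), *Itga6*, a laminin receptor chain (1.62 ± 0.24), and the linkers *Tln1*, *Vcl*, *Ilk* and *Fermt3* (1.27, 1.41, 1.45 and 1.28). *Itgb1* rose by 1.51 and *Itgb2*, the chain of leukocyte integrins, by 0.88.

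The red cell lists depended on the mouse. Of 21 measured globin and heme synthesis genes, none was a DEG by limma and 1 was at an unadjusted p below 0.05. There was 1 upregulated without irradiated mouse 5, and there were 4 upregulated without irradiated mice 2, 3 and 5 and 8 downregulated without irradiated mice 4 and 6. The mean level of the list was 7.42 to 8.32 in unirradiated mice, 6.90 to 7.47 in irradiated mice 1, 2, 3 and 5, and 9.22 and 9.32 in mice 4 and 6. *Alas2*, the first enzyme of heme synthesis in red cells, was at 13.8 to 14.9 (median 14.2) without irradiation and at 15.7 and 15.8 in irradiated mice 4 and 6 and 13.2 to 14.2 in the others. *Epb41*, of the red cell membrane skeleton, showed the same split, and changed by -0.57 over all mice and by -1.78 without mice 4 and 6 (adjusted p = 6.60e-04).

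Of 34 genes of the red cell membrane and of erythroid regulation, 7 were nevertheless up and none down, 7 without irradiated mice 4 and 6 (and 22 down) and 8 without irradiated mice 2, 3 and 5. Leaving out irradiated mouse 4 alone gave 1 downward call. *Epor*, the erythropoietin receptor, was at 2.33 to 3.93 (median 3.34) and 5.08 to 6.05 (median 5.38) and rose by 2.25 ± 0.30 (adjusted p = 4.23e-04). *Gata1* and *Tal1*, transcription factors that red cell precursors share with megakaryocytes, rose by 1.83 ± 0.27 and 2.11 ± 0.33, and *Aqp1*, a water channel, by 1.98 ± 0.26. Of 27 stem and progenitor genes, 8 were up and 3 were down, 13 up without irradiated mice 4 and 6 and 5 down without irradiated mice 2, 3 and 5. *Slamf1* (CD150) was at 4.87 to 5.57 and 7.11 to 7.91 and rose by 2.20 ± 0.24. *Flt3*, a receptor of multipotent progenitors and dendritic cells, fell by 2.02 ± 0.30 and *Myb*, a factor of immature cells, by 2.50 ± 0.51, with *Myb* well above background in 4 of 6 irradiated mice.

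Neutrophil genes varied from mouse to mouse. Of 30 measured granule genes 1 was up and none down, 7 up without irradiated mice 4 and 6 and 5 up and 1 down without irradiated mice 2, 3 and 5. The count of 1 was 0 up without unirradiated mouse 1, 5 or 6 or irradiated mouse 2, 3 or 6 and 2 up without unirradiated mouse 4 or irradiated mouse 5. Leaving out unirradiated mouse 3 or irradiated mouse 1 gave 1 downward call there. With the 75th percentile 2 were up. Of 27 receptors of mature neutrophils 1 was up. The upregulated member of the second list was *Slc2a3*, a glucose transporter also of platelets (1.90 ± 0.29). The mean level of the second list was 4.89 to 6.40 in unirradiated mice, 7.82 in irradiated mouse 1, 5.73 to 6.95 in mice 2, 3 and 5, and 4.33 and 4.31 in mice 4 and 6. Without mice 4 and 6, 9 of the 27 were up. *S100a8*, a calcium-binding protein that fills the neutrophil cytosol, was at 9.75 to 11.6 (median 9.97) and 9.49 to 13.1 (median 11.1), with irradiated mouse 1 highest, and its change of 0.75 ± 0.56 was not a DEG (adjusted p = 0.314).

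Of 31 measured monocyte genes, 5 were down and 1 was up (16.1% and 3.23%, below the 17.4% and 7.49% of all genes). *Cx3cr1*, the fractalkine receptor of patrolling monocytes, was at 6.52 to 7.76 (median 6.92) and 3.27 to 6.25 (median 4.90) and fell by 2.22 ± 0.48 (adjusted p = 0.00442). *Csf1r*, the receptor for the monocyte growth factor, was at 9.20 to 9.59 in irradiated mice 1, 2, 3 and 5, within the 8.74 to 9.92 of unirradiated mice, and at 7.20 and 7.16 in mice 4 and 6. The upregulated member, *F13a1* (coagulation factor XIII), is shared with platelets (1.45 ± 0.31). Without irradiated mice 2, 3 and 5, 15 of the 31 were down and 2 up, and without irradiated mice 4 and 6, 7 were down and 6 up. The downregulated count fell to 3 without unirradiated mouse 1, 2, 4, 5 or 6 or irradiated mouse 6. Of 26 tissue macrophage genes, 4 were up and 1 was down, 3 and 4 without irradiated mice 2, 3 and 5 (median -0.73) and 9 and 1 without irradiated mice 4 and 6 (median 1.69). This list had a mean level of 5.28, 5.84 and 5.43 in irradiated mice 2, 3 and 5, those with hepatocyte transcripts, 2.64 to 3.07 in irradiated mice 1, 4 and 6 and 2.20 to 4.19 in unirradiated mice. The part of the liver transcripts in it was not tested. *Siglec1*, a sialic acid receptor of macrophages, was measured well above background in none of the 6 unirradiated mice but in 4 irradiated mice and was at least 2.18-fold higher (adjusted p = 2.09e-04). *Stab1* and *Stab2*, scavenger receptors of macrophages and of sinusoidal endothelium, rose by 2.33 ± 0.32 and 1.93 ± 0.33, and were well above background in 5 and 2 of 6 unirradiated mice.

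Interferon-stimulated genes had 9 of 54 measured members up and 1 down (16.7% and 1.85%, against 7.49% and 17.4% of all genes). Their median was 0.26, and they differed between the irradiated mice. *Ifit1*, which binds foreign RNA, was at 2.09 to 3.29 (median 2.29) and 3.50 to 5.52 (median 4.47) and rose by 1.98 ± 0.36 (adjusted p = 0.00177), and *Igtp*, a GTPase induced by interferon gamma, was at 7.07 to 7.80 and 8.92 to 9.57 and rose by 1.75 ± 0.21 (adjusted p = 2.94e-04). The groups did not overlap in either gene. *Ifit3b* and *Oasl2* rose by 2.66 ± 0.62 and 1.94 ± 0.44 but were not DEGs without irradiated mice 2, 3 and 5 (1.97, adjusted p = 0.0369 and 1.71, adjusted p = 0.0192). *Rsad2* (viperin) and *Isg15*, a ubiquitin-like modifier, followed the red cell lists instead. *Isg15* was at 12.5 and 12.3 in irradiated mice 4 and 6, at 7.84 to 9.07 in the other 4 irradiated mice and at 8.4 to 11.02 in unirradiated mice, so that its change was 0.46 ± 0.83. *Psmb8*, a subunit of the immunoproteasome, fell by 1.25 ± 0.30, a call lost with the closest pairs counted as 1 sample each (-1.03, adjusted p = 0.0351). The count of 9 fell to 5 without unirradiated mouse 4 or 5 or irradiated mouse 1, 2 or 5. The 1 downward call became 2 without unirradiated mouse 4 or irradiated mouse 1. Without irradiated mice 4 and 6, 22 were up and 3 down, where 11.7% of all genes were up and 22.7% down. Without irradiated mice 2, 3 and 5, 5 were up and 4 down, where 15.8% of all genes were up and 24.4% down.

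Interferon response elements hold GAAA repeated after any 2 bases, which was found on either strand in the RefSeq promoters of 21 of the 39 members that have one (53.8%), against 3.99% of all genes of the table. Of the 21, 4 were up (*Ifit1*, *Ifit3*, *Ifit3b* and *Igtp*) and none down, with a median change of 0.37, and of the 18 without the repeat, 4 were up and 1 down, with a median of -0.03. The stretches around a match are shown for 3 members that rose and for 2 whose levels followed irradiated mice 4 and 6, 5′ to 3′ on the strand of the gene, with the repeat or its complement in capitals. The matches of the Isg15 promoter overlap each other.
Ifit1 promoter, chr19:34640765-34640814, plus strand: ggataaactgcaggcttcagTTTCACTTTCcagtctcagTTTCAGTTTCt
Ifit3b promoter, chr19:34607749-34607798, plus strand: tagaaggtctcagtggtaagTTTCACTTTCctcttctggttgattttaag
Igtp promoter, chr11:58199502-58199551, plus strand: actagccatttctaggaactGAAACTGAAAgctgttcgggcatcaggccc
Rsad2 promoter, chr12:26456543-26456592, minus strand: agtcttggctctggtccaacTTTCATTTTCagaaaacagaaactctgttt
Isg15 promoter, chr4:156200867-156200916, minus strand: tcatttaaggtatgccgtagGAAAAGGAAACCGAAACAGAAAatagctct
Genes with the repeat differed in which irradiated mice were high.

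Of 33 inflammatory cytokine and NF-kappaB genes, 5 were down and 1 was up (15.2% and 3.03%, below the 17.4% and 7.49% of all genes). *Rel*, an NF-kappaB subunit abundant in B cells, fell by 2.01 and *Tlr1*, a receptor for bacterial lipopeptides, by 2.61. *Il18bp*, the secreted inhibitor of interleukin 18, was at 0.77 to 1.76 and 2.78 to 3.69 and rose by 1.84 ± 0.26 (adjusted p = 5.42e-04). Leaving out irradiated mouse 3 gave 2 upward calls, leaving out irradiated mice 2, 3 and 5 gave 4 up and 7 down, and leaving out irradiated mice 4 and 6 gave 5 up and 6 down. With the 75th percentile 2 were up and 3 down. Of 26 antioxidant targets of NRF2, 4 were up and 2 down, 1 down without any single one of unirradiated mice 1, 2, 3, 5 and 6 and irradiated mice 1, 4 and 6, and 4 down without irradiated mice 4 and 6. *Srxn1* (sulfiredoxin) was at 7.24 to 8.17 (median 7.62) and 9.26 to 9.95 (median 9.69) and rose by 2.02 ± 0.24 (adjusted p = 2.51e-04), and *Prdx6*, a peroxiredoxin, rose by 1.38 ± 0.24. The irradiated mice lay close together for both.

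With the array median, mitochondrial ribosomal proteins and translation factors were downregulated more often than all genes (58.1% and 44.1%, against 17.4%). The counts depended on the scaling. Of 62 mitochondrial ribosomal proteins, 36 were down and none up with the array median. The downregulated count was 15 with the 75th percentile (median -0.94 in place of -1.13), 19 after quantile normalization (-1.06), 12 with the detected-probe median (-0.89) and 6 in the authors' values (-0.98). Over all genes tested, 2001 of 15640, 2488 of 15801, 1745 of 15491 and 1367 of 17165 were down under these settings, in that order. *Mrpl3* fell by 1.64 ± 0.36. Without unirradiated mouse 1, 3, 5 or 6 the count was 21, 22, 23 or 18. Of 34 translation factors, 15 were down and 1 was up, with a median of -0.998, 24 down without irradiated mice 4 and 6 and 9 down with the authors' values. *Eif2s1*, a subunit of the factor that brings the initiator tRNA, fell by 1.90, and the upward call was kept in no single omission but those of unirradiated mouse 4 and irradiated mouse 3. Of 78 cytoplasmic ribosomal proteins, 16 were down (20.5%, near the 17.4% of all genes). The count was 5 with the 75th percentile and 27 with quantile normalization. It was 8 without irradiated mice 2, 3 and 5, where 24.4% of all genes were down. Without irradiated mice 4 and 6 it was 65, with 22.7% of all genes down. Mean levels in mice 4 and 6 (11.2 and 11.2) lay within those of unirradiated mice (10.7 to 11.3), while the other 4 irradiated mice were at 9.62 to 10.3. The count of 16 fell to between 7 and 10 without unirradiated mouse 1, 3, 5 or 6 or irradiated mouse 1, 2 or 5. *Rps18* fell in all 6 irradiated mice, from 9.78 to 10.6 to between 8.16 and 9.15 (-1.62 ± 0.26).

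Of 41 clustered histone genes on the array, 12 were up and 2 down, with a median of 0.53, 5 down without irradiated mice 4 and 6, and 19 up and 0 down with the detected-probe median. *Hist1h2bc* was at 9.89 to 10.7 and 11.3 to 12.3 (1.48 ± 0.26) and *Hist1h2bm* at 7.19 to 8.65 and 9.36 to 10.4 (1.64 ± 0.30), whereas *Hist1h1b*, a linker histone, fell by 1.63 ± 0.38. Histone genes are nearly identical in sequence, so that a probe may also read its relatives. The call of *Hist1h1b* was lost with scaling by the 75th percentile, with quantile normalization and without irradiated mice 2, 3 and 5 (adjusted p = 0.0274, 0.0220 and 0.0362). Of 37 measured genes that the study names for old mice, 14 were up and 8 down; that list was chosen on these samples and is not independent evidence of its direction. Among them *Olfr629*, *Slc22a23* and *Prickle1* did not overlap between the groups either, with rises of 2.71 ± 0.27, 2.53 ± 0.24 and 2.44 ± 0.28.

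Hepatocyte transcripts gave most of the largest rises and were carried by some of the irradiated mice. Of 29 measured hepatocyte secreted proteins, 19 were up and none down, 14 without irradiated mice 2, 3 and 5. The mean level of the list was 0.04 to 0.82 in unirradiated mice, 1.12 in irradiated mouse 1, 3.28 and 3.16 in mice 4 and 6, and 8.22, 8.59 and 8.85 in mice 2, 3 and 5. *Serpina1a* (alpha-1 antitrypsin) was at -2.75 to -0.12 (median -2.0) in unirradiated mice, at 0.09 in irradiated mouse 1, at 5.81 and 5.42 in mice 4 and 6, and at 12.6, 12.6 and 12.9 in mice 2, 3 and 5. It was 5.54 higher without irradiated mice 2, 3 and 5. *Ahsg* (fetuin A) was not well above background in any unirradiated mouse and was in 5 of 6 irradiated mice, where it was at least 201-fold higher (adjusted p = 0.00247), and *Apoh* was at least 40.5-fold higher (adjusted p = 0.00295). *Trf* (transferrin), by contrast, was at 11.4 to 11.7 in mice 2, 3 and 5, at 7.55 in mouse 1 and at 5.39 and 5.21 in mice 4 and 6, against 6.30 to 7.59 in unirradiated mice (adjusted p = 0.248).

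Of 7 measured major urinary proteins, whose genes are near-identical copies that the probes may not separate, 6 were up, 3 without irradiated mice 2, 3 and 5. *Mup19* was at 12.1, 12.7 and 12.5 in irradiated mice 2, 3 and 5, at 5.80 and 5.61 in mice 4 and 6 and at -1.06 in mouse 1, which lay within the unirradiated mice (-2.32 to -0.15). Acute phase proteins had 8 of 18 measured members up, 5 without irradiated mice 2, 3 and 5 and 13 without irradiated mice 4 and 6. *Saa1* (serum amyloid A), made by the liver, was at 2.87 to 5.34 in unirradiated mice, 3.65 in irradiated mouse 1, 7.37 and 7.80 in mice 4 and 6 and 9.40 to 11.2 in mice 2, 3 and 5, a rise of 4.8 ± 1.04 that was not a DEG without mice 2, 3 and 5 (2.74, adjusted p = 0.0184). *Mt2* (metallothionein 2) showed the same split, with 2.42 in mouse 1 and 5.12 to 7.37 in the other irradiated mice, and rose by 3.25 ± 0.63. How far these transcripts bear on the calls of other genes was not tested.

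**Figure D5:**
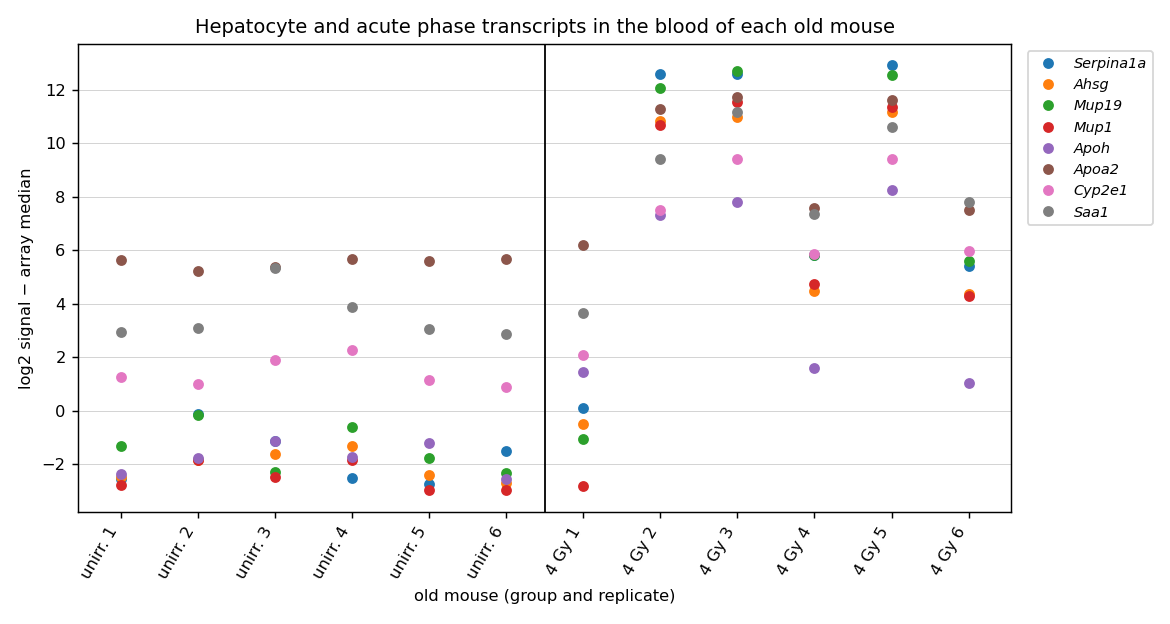
Levels of 8 hepatocyte or acute phase transcripts (log2 signal minus the array median, 1 colour per gene) in each of the 12 old mice. Irradiated mice 2, 3 and 5 lie at 7.30 or above for all 8 genes, mice 4 and 6 between these and the unirradiated mice, and mouse 1 below both sets for 7 genes and between mice 4 and 6 for *Apoh*.

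Genes of the endothelial list were upregulated. The list shares *Vwf* with the platelet list and *Stab2* with the tissue macrophage list. The part of platelet and liver transcripts in its rise was not tested. Of 19 measured members, 13 were up and none down, 11 without irradiated mice 2, 3 and 5 and 14 without mice 4 and 6, and the mean level of the list was 1.08 to 1.76 and 2.74 to 3.38. *Plvap*, of the diaphragms of fenestrated vessels, was at 2.79 to 3.65 (median 3.05) and 4.69 to 6.16 (median 5.15) and rose by 2.22 ± 0.28 (adjusted p = 3.18e-04). *Cldn5*, a tight junction protein of vessels, was not well above background in any unirradiated mouse and was in 5 of 6 irradiated mice, where it was at least 2.41-fold higher (adjusted p = 8.48e-05). *Col18a1*, a collagen of basement membranes, is not a member of this list. It was at 5.25 to 6.04 in irradiated mice 2 to 6 and 1.40 in mouse 1, against -1.45 to 0.54 in unirradiated mice (5.53 ± 0.71). Irradiated mouse 1 was also the lowest irradiated mouse for the hepatocyte lists, while its endothelial level (3.16) lay among those of the other irradiated mice. The part of liver transcripts in the rise of *Col18a1* was not tested. The mean level of 13 cardiac muscle markers was -0.04 to 0.33 in unirradiated and 0.07 to 1.70 in irradiated mice, highest in mouse 3. *Aqp2*, the water channel of the collecting duct of the kidney, was at 8.06 and 8.76 in irradiated mice 4 and 6 and 2.07 to 4.03 in the other 4, against 2.69 to 3.87 in unirradiated mice, and was a DEG only without irradiated mice 2, 3 and 5 (3.73, adjusted p = 0.00409).

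Whether old and young mice differed in their response was tested by the interaction of age and dose over all 24 arrays, and limma gave 0 DEGs (0% of the genes; lowest adjusted p = 0.0607, 4191 genes at an unadjusted p below 0.05, and 0 DEGs also with trend and robust variance). Age and scanning day cannot be told apart, since all arrays of an age were scanned on 1 day and the ages on different days. *Cdkn1a* rose by 3.96 in old and by 5.06 in young mice, *Bax* changed by 0.62 and 1.40 and *Rps27l*, a p53 target, by 0.42 and 1.53 (interaction adjusted p = 0.158, 0.129 and 0.129). *Fcer2a* changed by -5.51 in old and -4.32 in young mice (adjusted p = 0.118). The count of 0 became 6043 without irradiated old mice 2, 3 and 5, 1050 without irradiated old mouse 3 alone and 27 without irradiated old mice 4 and 6.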

How the data were processed

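Blood RNA of 24 male mice was hybridised to single-dye Agilent mouse arrays, 1 mouse per array. The deposited intensity values, 1 file per array, were written by Agilent Feature Extraction 12.0.2 (named in the submitters' processing notes), which subtracted background. The authors also deposited a filtered table of log2 values with column medians of 5.77 to 6.73; its centring is unknown and it was used as an alternative only. Here, spots with the scanner's non-uniformity mark were removed, and each array's log2 values were centred on the median over its 43020 non-control spots. Of 39429 probes, 24130 were kept (non-uniform or not significant in under 25% of 24 arrays), and 17802 genes had a 1.5-fold difference from their median in 20% of arrays, each by its brightest probe. Groups were compared with limma 3.58.1 in R 4.3.3, over 6 and 6 arrays, two-sided, at p below 0.005 and Benjamini-Hochberg adjusted p below 0.05. Promoters came from RefSeq and figures from matplotlib 3.10.9. The same tests were tried on simulated data.

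Members and gene lists were chosen with earlier results of these data known. Genes named are those the study names for old mice, the 10 largest rises and falls whose groups do not overlap and which also pass without irradiated mice 2, 3 and 5, up to 5 DEGs each way and the 5 brightest genes per list, and the 5 brightest hepatocyte genes; a list member given with its change alone can fall outside this rule. A bound ("at least") sets the bright group against the higher of the dim probe's signal and the lowest signal well above background on each array. Alternatives were other scalings, filters, variance models, blocks, the authors' values and omitted mice, and those that leave out irradiated mice 4 and 6 or count the closest pairs as 1 sample were added after seeing the data. Replicate numbers were not taken as pairs. Deviations of same-numbered mice correlated at -0.204 to 0.336, and for 3 of 6 unirradiated mice the same-numbered irradiated mouse correlated highest. These values do not settle whether the numbers pair mice. The number of arrays limits the precision. Results of a few genes named by this rule are left out.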

Additional observations from a re-analysis of the deposited data

Results flagged for a closer look

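In 16 of 412 groups of 6 values tested (3.88%; chance gives about 5%), the highest or lowest mouse stood apart, with a gap to its nearest neighbour that, as a share of the whole range of the group, was over Dixon's critical value for 6 values. Unirradiated mouse 4 was the mouse in 8 of the 16. It was lowest for *Pold1* (gap of 0.893 of the range, level 5.20 against 5.97 in the next mouse), *Foxp1* (0.785), *S1pr1* (0.694), *Aen* (0.692) and the end joining list (0.666), and highest for *Retnlg*, a neutrophil transcript (0.741), *Plvap* (0.662) and the neutrophil granule list (0.64). Unirradiated mouse 3 was lowest for *Csf3r*, the granulocyte growth factor receptor (0.775), and for *Ccr2*, a monocyte chemokine receptor (0.768, level 5.17 against 6.27), and highest for the list of p53 arrest targets (0.81). Unirradiated mouse 2 was highest for *Mt2* (0.707) and unirradiated mouse 5 was lowest for the lung epithelium list (0.754). Among irradiated mice, mouse 1 was lowest for *Col18a1* (0.831, level 1.40 against 5.25) and highest for *Slamf1* (0.664), and mouse 6 was highest for *Fancb*, of the Fanconi core complex (0.626, level 0.93 against 0.10).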

How the results depend on the processing

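Of 4236 values of the 147 named genes under all alternatives, 4039 kept their direction and their side of the threshold, 185 lost the call, 10 gained it and 2 turned their direction. The 2 were *Mad2l1*, a spindle checkpoint gene (-1.41 here, 1.001 with the authors' values), and *Prkcq* (1.23 and -0.023), for which the authors' table keeps a different probe of the gene. The 4428 DEGs became 8 with normexp background correction (4 up and 4 down; 497 genes at an unadjusted p below 0.005), 2845 with the authors' values (1367 down), 7168 without irradiated mice 2, 3 and 5 (2819 up), and 2876 with the closest pairs counted as 1 sample each (1764 down). The cause of the loss with normexp was not tested. Without irradiated mice 4 and 6, 2083 genes were up. The downregulated count was 2001 with the 75th percentile and 1745 with the median of probes well above background on all arrays. The median change of all genes was 0.24, 0.30, -0.05, 0.23 and 0.08 with the 75th percentile, that median, quantile normalization, normexp and the authors' values, and 48%, 53.3%, 36.2%, 50% and 52% of DEGs were up. Leaving out 1 mouse gave 3228 to 4637 DEGs, 1100 to 1390 up and 2128 to 3247 down. The 0 genes that differed between ages became 8, 7 and 8 with the 75th percentile, quantile normalization and the detected-probe median, 32 with slide as a random block, 6043 without irradiated old mice 2, 3 and 5, 27 without irradiated old mice 4 and 6 and 0 to 1050 without 1 mouse. With the replicate number as a block there were 3465 DEGs and 0 genes that differed between ages. Block calls lost included *Aen*, *Mdm2*, *Pf4* and *Gzmm*, and whether the numbers pair mice is not settled. On the slide with both groups, 2 mice of each, the 127 called named genes kept their sign, but the same mice entered the calls, so this says little about the slide. Low signal limits the dimmest genes most in irradiated mice 4 and 6.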
